A study of Mus musculus with 18 samples.

Results

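The genes described here are those that make, break down and sense histamine, together with the granule proteases by which mast cells, a known store of histamine, are recognised. They are Hdc, Hnmt, the receptor genes Hrh1, Hrh2 and Hrh3, and the mast cell protease genes Cpa3, Cma1, Mcpt4 and Tpsb2, which makes 9 of the 22558 genes in the deposited tables. They were taken by symbol, and all 9 were found in the tables of both tissues. Hdc was chosen by its low fragment values in the retinas of both Abca4 mutants, and its retinal values are therefore given as a description, with no test. Abca4 encodes a transporter of photoreceptor discs that moves retinoid conjugates across the disc membrane.

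The libraries come from retina and from the combined retinal pigment epithelium (RPE) and choroid of mice on a mixed 129SV and C57BL/6 background, aged 30 days. The 3 genotypes compared are named here wild type, knockout (Abca4-/-) and knock-in, in which both Abca4 copies carry L541P and A1038V. Each genotype had 3 libraries per tissue, 18 in all. Whether each library is a different animal is not in the labels. The p-values therefore measure only the spread between these samples, which may be technical. Libraries are named by genotype and by the number 0 to 2 that the tables give them.

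Histamine is made from histidine in a single step by histidine decarboxylase, the product of Hdc. Within cells, and throughout the nervous system, it is inactivated mainly by the methyltransferase encoded by Hnmt, and it acts through receptors coupled to G proteins, of which the H3 receptor sits largely on nerve terminals and curbs transmitter release. Mammalian retinas receive histamine-containing axons from the hypothalamus, and the choroid holds connective tissue mast cells, which store histamine in granules packed with carboxypeptidase A3, chymases and tryptases.

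Retinal libraries held 11.6 to 23.6 M assigned fragments and RPE/choroid libraries 14.6 to 30.0 M. Abca4 itself was lower in knockout than in wild-type retina (log2 -1.68, adjusted p = 4.33e-08 by edgeR). The summed level of 8 rod markers was 19310 to 21270 FPKM (fragments scaled by transcript length in kilobases and by library size) in retina. It was 70.7 to 382.5 FPKM in RPE/choroid except in wild-type library 2, where it was 2021. Read from Xist and Ddx3y, the retinal libraries counted 2 males among wild type, 1 among knockout and 0 among knock-in, and the RPE/choroid libraries 8 males of 9, all but knock-in library 2. Levels are given below in FPKM where genes are set side by side. Where libraries are compared for single genes, levels are mostly given in CPM, the fragments of a gene per M fragments of the library, with library sizes scaled by the trimmed mean of M values (TMM). Sums over lists of markers are in FPKM, which for some genes shifted against CPM by library number, as given further below.

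Hdc, the gene of the histamine-forming enzyme, lies on chr2:126419403-126444401 in the mm9 coordinates of the tables. In wild-type retina it gave 4.59, 5.22 and 6.46 TMM-scaled CPM. In knockout retina the 3 libraries gave 1.38, 1.73 and 2.38, and in knock-in retina they gave 1.08, 1.09 and 1.29. Every mutant library lay below every wild-type library, and every knock-in library lay below every knockout library. Such a gap to lower values was present in 9.19% of the genes tested for knockout and in 7.99% for knock-in against wild type, shares from which nothing is read, as these values chose the gene. For knock-in against knockout it was present in 8.74%. These values rest on 71 to 75 fragments in each wild-type, 28 to 38 in each knockout and 25 or 26 in each knock-in library. The fitted log2 difference from wild type was -1.59 in knockout and -2.23 in knock-in, which puts Hdc at 33.2% and 21.4% of its wild-type level. Both comparisons use the same 3 wild-type libraries.

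Between the mutants, Hdc was lower in knock-in than in knockout retina by a fitted log2 of -0.64. The knockout and knock-in libraries of this comparison also entered the choice of Hdc, so the difference is given without a test. In the authors' deposited table, Hnmt, Hrh2 and Hrh3 each have q = 0.999 for the same comparison, where 2.34% of genes have a q under 0.05. Within each retinal group the highest Hdc value was that of library 2. By sex, the 2 male wild-type libraries gave 4.59 and 5.22 and the female one 6.46, while the male knockout library gave 1.38 and the female ones 1.73 and 2.38. The knock-in libraries, all female, gave 1.08 to 1.29. Males were unevenly spread over the genotypes, and the part of sex in these values was not tested.

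**Figure D1:**
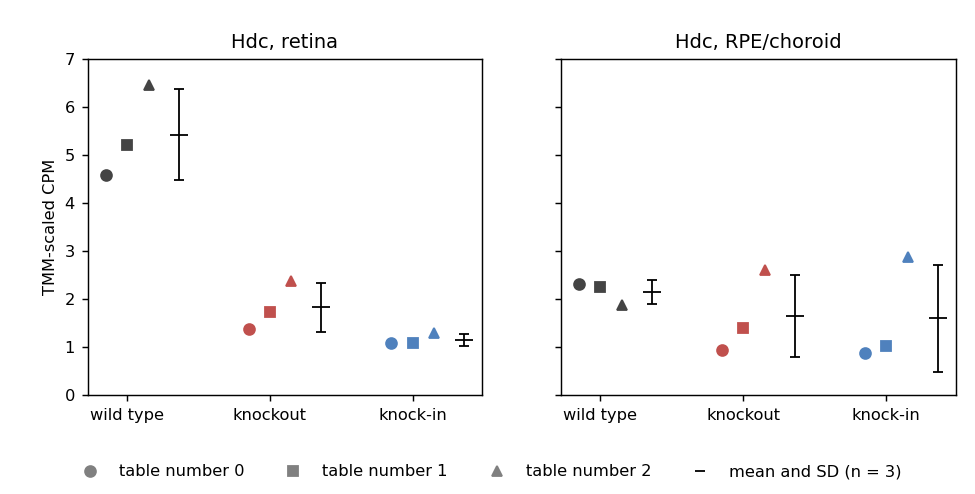
TMM-scaled CPM of Hdc (vertical axis) in each library of retina (left) and RPE/choroid (right), by genotype, with marker shapes for the library number in the tables and bars for the mean and SD of 3 libraries. In retina, wild type spans 4.59 to 6.46 and lies above both mutants, and in RPE/choroid the highest values are knock-in library 2 at 2.88 and knockout library 2 at 2.60.

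Summed markers of other cells also varied between the same retinal libraries. The 10 RPE markers summed to 116.6 to 130.7 FPKM in the wild-type, 164.2 to 210.7 in the knockout and 154.3 to 175.2 in the knock-in retina, so both mutants lay above wild type, and none of the 10 was at 0. Lens crystallins and other lens markers ranged from 18.6 to 8525 FPKM over the 9 retinal libraries, with all 3 groups overlapping. The 3 red blood cell markers summed to 1.68 to 40.9 FPKM in wild type, to 0.662 to 13.9 in knockout and to 0.669 to 5.39 in knock-in retina, with the groups overlapping and both mutant medians, like those of Hdc, below the wild-type median. Of these 3 genes, 2 were tested, and both had lower fitted levels in both mutants. Alas2, which encodes the first enzyme of haem synthesis in red cell precursors, was called in knockout (log2 -1.23, adjusted p = 0.0236 by edgeR) and not in knock-in (log2 -0.81, adjusted p = 0.217), and the globin gene Hba-a1 was called in neither (adjusted p = 0.605 and 0.506). The 6 melanocyte markers summed to 10.4 to 21.3 FPKM in wild type and lay above that in knockout, at 24.7 to 31.1. The rod markers, at 20530 to 21270 FPKM in wild type, lay below that in knock-in, at 19310 to 20170. Among single genes, 7.99% had such a gap with knock-in below wild type. The share of genes with a mutant above wild type is not given here. By edgeR, 0 of the melanocyte, rod and lens markers were called in either mutant against wild type. Of the 10 RPE markers, 4 were called higher in knockout and 0 in knock-in. Among all genes tested, 0.98% and 0.265% were called in either direction. Basophil markers, for the blood cell that also makes histamine, summed to at most 0.069 FPKM in any retinal library, with 2 of the 3 genes at 0. The 4 mast cell proteases had 0 to 2 fragments each in all 9 retinal libraries together. The part of these markers in the Hdc values was not tested. In bulk tissue, fewer cells of a type and less RNA per cell cannot be told apart.

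The promoter of Hdc is shown because Hdc is the gene that was chosen by its retinal values. The 250 bases before its RefSeq start (GRCm38.p6, chr2:126618679-126618928, minus strand) are printed here 5′ to 3′.
Hdc: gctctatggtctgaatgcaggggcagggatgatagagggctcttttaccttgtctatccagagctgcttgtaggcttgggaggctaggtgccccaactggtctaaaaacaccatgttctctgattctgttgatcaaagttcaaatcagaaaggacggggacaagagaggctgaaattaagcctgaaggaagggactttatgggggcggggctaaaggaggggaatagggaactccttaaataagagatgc
This window was searched on both strands for 2 words of GATA factors (AGATAA, or else TGATAA), 2 E-box words (CATGTG, or else CACGTG) and the word TATAAA of the TATA box, which do not overlap each other in sequence. None of these words was found in it, and so no base is in capitals. Related words such as TGATAG, which this window holds, were not searched for. Over the 32851 RefSeq promoters of this length, 16.6% hold a GATA word, 17.6% an E-box word and 12.4% the TATA word.

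None of the genes beside Hdc on chromosome 2 was called in either mutant retina. Slc27a2, 5.4 kb away, had a log2 difference from wild type of 0.17 in knockout (adjusted p = 0.916) and -0.77 in knock-in retina (adjusted p = 0.665). Gabpb1, 10.2 kb away on the other side, stood at -0.05 and -0.04 (adjusted p = 0.841 and 0.924). Usp8, 88.7 kb away, stood at -0.04 and 0.03 (adjusted p = 0.914 and 0.954). Atp8b4, 102.1 kb away, was too low in retina to be tested.

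Over the 9 retinal libraries, the genes whose FPKM profile lay closest to that of Hdc were Cd59a, Adhfe1, Hjurp, Snhg6 and Lyrm7. Closeness was the root mean square difference between centred log2(FPKM + 0.1) profiles, over 11459 genes with a mean FPKM of at least 1 in a group. It was 0.47 for Cd59a, which encodes an inhibitor of complement attack, and 0.58 for Lyrm7, the fifth. On TMM-scaled CPM, a scale chosen after seeing the data, 4 of these 5 genes were again among the first 5, and the other was the beta-globin gene Beta-s. Genes picked for a profile like that of Hdc differ from wild type in the same way by that choice, so their differences are given without a test. The fitted log2 was -0.80 in knockout and -0.83 in knock-in for the long non-coding RNA gene Snhg6, and -1.55 and -1.19 for Cd59a. Hnmt and Hrh3 ranked 8837 and 6779 in this order.

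The other 4 histamine genes were not called in either mutant retina. Of Hnmt, Hrh1, Hrh2 and Hrh3, 0 of 4 were called by edgeR in knockout and 0 of 4 in knock-in against wild type. The share called among all 14699 retinal genes tested was 0.98% and 0.265%. None of the 4 had an unadjusted p under 0.05, and 0 were called by DESeq2 or by limma. Their median log2 difference was -0.14 in knockout and 0.06 in knock-in, beside medians over all genes of 0.00 in each. In knock-in against knockout retina, 0 of these 4 genes were called, where 1.26% of all genes were called. None of the 4 had an unadjusted p under 0.05 there.

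Hnmt, at chr2:23858431-23904899, encodes the enzyme that methylates histamine. It stood at 15.2, 16.9 and 15.1 TMM-scaled CPM in the wild-type, 16.3, 15.7 and 14.7 in the knockout and 16.4, 17.0 and 17.6 in the knock-in retina. The groups overlapped for each mutant against wild type, while every knock-in library lay above every knockout library, as for 8.76% of genes tested. The log2 difference was -0.01 (95% interval -0.20 to 0.17) in knockout and 0.11 (-0.08 to 0.30) in knock-in against wild type, with adjusted p of 0.972 and 0.773 by edgeR.

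Hrh3, at chr2:179834177-179838927, encodes the H3 receptor and was the most abundant histamine receptor gene of the retina. It gave 12.1, 15.2 and 14.1 TMM-scaled CPM in the wild-type, 11.5, 12.2 and 15.6 in the knockout and 12.5, 13.7 and 15.8 in the knock-in retina. All 3 groups overlapped, and the log2 differences from wild type were -0.08 (95% interval -0.37 to 0.21) and 0.02 (-0.26 to 0.31). Hrh2, at chr13:54287497-54317801, encodes the H2 receptor, which raises cyclic AMP. Hrh1, at chr6:114347929-114433290, encodes the H1 receptor, which raises cytosolic calcium. Hrh2 and Hrh1 were read by 8 to 30 and by 7 to 21 fragments per retinal library, and their log2 differences from wild type ran from -0.31 to 0.10. In knockout the 95% intervals were -1.17 to 0.56 for Hrh1 and -0.87 to 0.48 for Hrh2. In knock-in they were -0.86 to 0.78 and -0.54 to 0.75. A difference within the interval of its gene was not excluded at this depth. Hrh4, the H4 receptor gene of blood cells, had 1 fragment in the 9 retinal libraries.

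**Figure D2:**
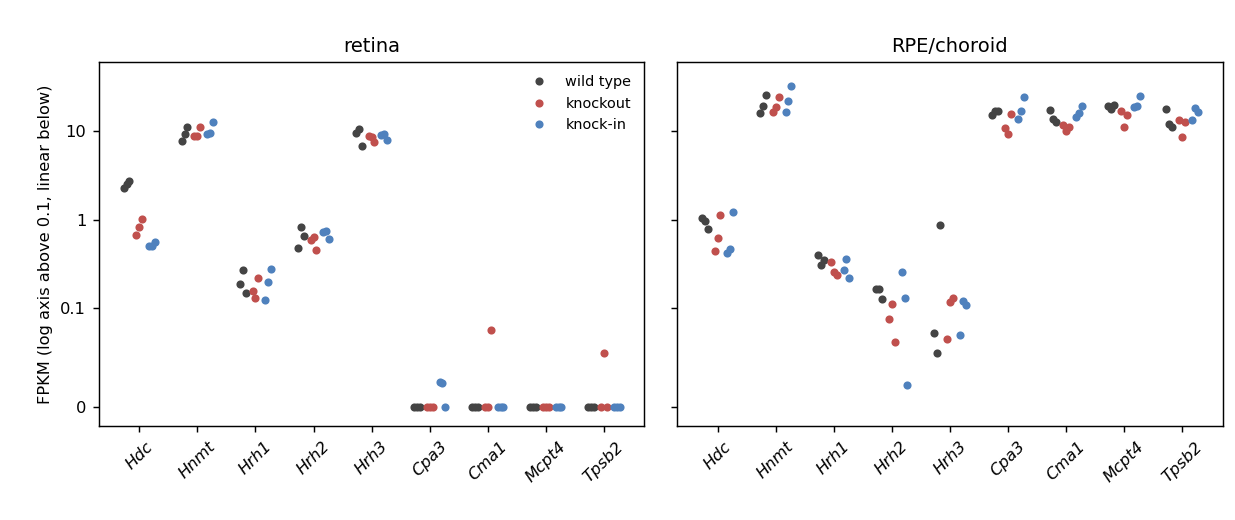
FPKM (vertical axis, logarithmic above 0.1 and linear below) of the 9 genes in each library of retina (left) and RPE/choroid (right), coloured by genotype. Hnmt and Hrh3 lead in retina, where the 4 protease genes lie at or near 0, while Hnmt and the 4 protease genes lead in RPE/choroid.

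Per length, the order of levels in wild-type retina was Hnmt at 9.42 ± 1.60 FPKM (SD, n = 3), Hrh3 at 8.99 ± 1.95, Hdc at 2.51 ± 0.24, Hrh2 at 0.657 ± 0.174 and Hrh1 at 0.203 ± 0.062. Hnmt and Hrh3 differed by less than their SD, and the steps from Hrh3 to Hdc, to Hrh2 and to Hrh1 were each larger than the spread between libraries. In both mutant retinas Hdc came closer to Hrh2: it stood at 0.835 ± 0.176 FPKM beside 0.565 ± 0.097 in knockout, and at 0.526 ± 0.028 beside 0.694 ± 0.082 in knock-in.

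The order differed in wild-type RPE/choroid. Hnmt led at 20.3 ± 4.70 FPKM (SD, n = 3), followed by Mcpt4 at 18.9 ± 0.94, Cpa3 at 16.4 ± 0.98, Cma1 at 14.6 ± 2.42 and Tpsb2 at 13.7 ± 3.55. Neighbours among these first 5 genes lay within the SD of at least 1 of the pair, except Mcpt4 and Cpa3. Hdc was far below them at 0.939 ± 0.143 FPKM, then Hrh1 at 0.355 ± 0.048 and Hrh2 at 0.153 ± 0.023. Hrh3 was at 0.335 ± 0.468 FPKM, a mean set by wild-type library 2, which gave 0.875 FPKM on 30 fragments while the other 8 libraries had 2 to 6 fragments. That is the library with 2021 FPKM of summed rod markers.

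In the comparison of wild-type RPE/choroid with wild-type retina, 85.9% of all 16222 genes tested were called by edgeR, and 85.2% by DESeq2. Hdc, Hnmt and Hrh1 passed the filter on low counts in each tissue. The other 6 genes entered this comparison only through the tissue where they are high, so no count of calls is given over the 9. Hnmt was higher in RPE/choroid by log2 0.87 (SE 0.08, adjusted p = 1.08e-08) and Hrh1 by log2 0.81 (SE 0.33, adjusted p = 0.0289), and DESeq2 called both. Among all genes, 44% were called as higher in RPE/choroid. The fitted log2 was -1.26 for Hdc, given without a test since the wild-type retinal values entered its choice. For Hrh2 it was -1.68 (SE 0.40) and for Hrh3 -4.55 (SE 0.50). The Hrh1 call was lost without retinal wild-type library 0 (log2 0.73, adjusted p = 0.0893), without retinal wild-type library 2 (0.64, 0.117) and without RPE/choroid wild-type library 0 (0.71, 0.0786). Without RPE/choroid wild-type library 2, the fitted log2 of Hrh3 was -6.90.

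The protease genes were read almost entirely in RPE/choroid. Cpa3, Cma1, Mcpt4 and Tpsb2 had 1549, 960, 1110 and 776 fragments in wild-type RPE/choroid and 0 in wild-type retina, whose 3 libraries hold 40.8 M fragments. With 3 fragments over the retinal group as the floor that a count of 0 allows, Cpa3 was at least 319-fold higher in RPE/choroid, Mcpt4 at least 229-fold, Cma1 at least 198-fold and Tpsb2 at least 160-fold. Over all 9 retinal libraries, with 161.7 M fragments, Cpa3 had 2 fragments, Cma1 1, Tpsb2 1 and Mcpt4 0. Such floors cover counting error only.

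In the RPE/choroid, Hdc stood at 2.32, 2.26 and 1.87 TMM-scaled CPM in wild type. Knockout libraries gave 0.947, 1.39 and 2.60, and knock-in libraries gave 0.889, 1.03 and 2.88. In each mutant 2 libraries lay below all wild-type libraries and library 2 lay above them, so the groups overlapped. The log2 difference was -0.38 (SE 0.48, 95% interval -1.45 to 0.70, adjusted p = 0.732) in knockout and -0.42 (SE 0.48, -1.51 to 0.66, adjusted p = 0.928) in knock-in. Without knockout library 2 the first became -0.88 (adjusted p = 0.587), and without knock-in library 2 the second became -1.17 (adjusted p = 0.706), neither of them called. Knock-in library 2 was the 1 female RPE/choroid library, and knockout library 2 was male.

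The genotype effect on Hdc was thus nearer to 0 in RPE/choroid than in retina, by a fitted log2 of 1.24 for knockout and 1.79 for knock-in, given without a test since the retinal values chose the gene. For Hnmt these differences between tissues were 0.07 and 0.14 and for Hrh1 -0.04 and -0.31 (adjusted p from 0.848 to 0.991 by edgeR). Neither gene was called for such a difference in the fit of all 18 libraries, where 0.136% and 0.0555% of all genes were called. The proteases, with at most 2 fragments each in all retinal libraries, have no measurable retinal effect to compare.

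The 4 mast cell proteases were lowest in knockout RPE/choroid. Cpa3, on chr3:20115514-20142080, encodes the carboxypeptidase of mast cell granules. It gave 25.8, 24.8 and 19.7 TMM-scaled CPM in the wild-type, 19.2, 13.9 and 18.3 in the knockout and 24.8, 26.3 and 26.7 in the knock-in libraries. Every knockout library lay below every wild-type and every knock-in library. Cma1, on chr14:56560287-56563498, encodes a chymase and gave 17.7, 14.4 and 12.1 in the wild-type, 12.0, 10.4 and 10.8 in the knockout and 15.2, 16.6 and 18.4 in the knock-in libraries. Mcpt4, on chr14:56678580-56681147, encodes the main chymase of connective tissue mast cells and gave 18.3, 16.8 and 16.0 in the wild-type, 15.8, 10.6 and 12.9 in the knockout and 18.03, 18.3 and 21.4 in the knock-in libraries. For these 2 chymases, too, the knockout libraries were below all others, although the highest of them came close to the lowest wild-type library (12.0 against 12.1 for Cma1, and 15.8 against 16.0 for Mcpt4). Tpsb2, on chr17:25503277-25505037, encodes a tryptase and gave 14.9, 11.1 and 9.94 in the wild-type, 10.8, 7.53 and 11 in the knockout and 10.7, 16.2 and 14.9 in the knock-in libraries, with all groups overlapping.

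**Figure D3:**
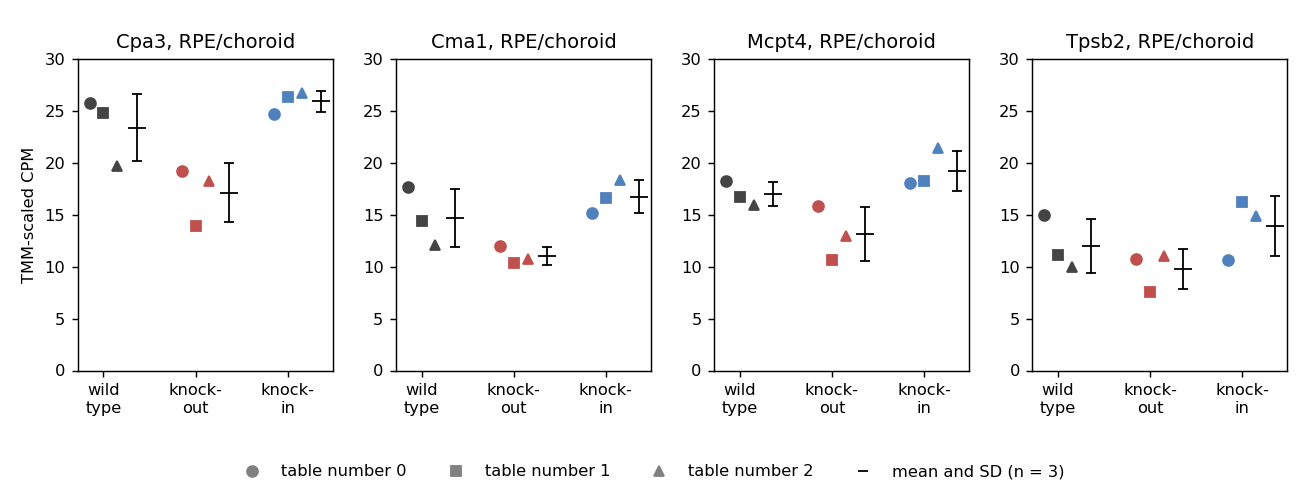
TMM-scaled CPM (vertical axis) of Cpa3, Cma1, Mcpt4 and Tpsb2 in each RPE/choroid library by genotype, with marker shapes for the library number in the tables and bars for the mean and SD of 3 libraries. For Cpa3, Cma1 and Mcpt4 all 3 knockout libraries lie below all wild-type and all knock-in libraries, and for Tpsb2 the groups overlap.

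None of these differences passed over all genes. In knockout against wild type, 0 of the 7 genes tested in RPE/choroid were called by edgeR, and 0 by DESeq2 or limma, where 0.472% of 15454 genes were called. All 4 proteases were lower, 3 of them at an unadjusted p under 0.05, with a median log2 of -0.39 beside -0.01 over all genes. Groups that do not overlap, with knockout lower, were found for 3 of the 7 genes and for 11.5% of all genes. Cpa3 differed by log2 -0.45 (SE 0.13, adjusted p = 0.161), Cma1 by -0.41 (SE 0.14, 0.204), Mcpt4 by -0.37 (SE 0.14, 0.240) and Tpsb2 by -0.29 (SE 0.21, 0.548). Without wild-type library 2, the library with the rod transcripts, Cpa3 and Cma1 were called (log2 -0.56, adjusted p = 0.0364, and log2 -0.53, adjusted p = 0.0477), and with it out 462 genes, or 2.97%, were called in place of 73.

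Knock-in RPE/choroid did not differ detectably from wild type in these genes. All 4 proteases had a higher fitted level, with a median log2 of 0.18, 0 of them at an unadjusted p under 0.05 and adjusted p from 0.889 to 0.915. Of the 7 genes tested, 0 were called by edgeR, DESeq2 or limma, where 0.0647% of all genes were called. Hnmt had the smallest p of the 7. It gave 28.0, 28.9 and 26.3 TMM-scaled CPM in the wild-type, 30.6, 29.0 and 26.2 in the knockout and 30.9, 35.3 and 33.5 in the knock-in libraries, so that knock-in lay above both other groups. Such a gap between knock-in and wild type, with knock-in higher, was present in 5.28% of all genes. Its log2 difference from wild type was 0.26 in knock-in (SE 0.08, unadjusted p = 0.00824, adjusted p = 0.758) and 0.04 in knockout (adjusted p = 0.816).

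Knock-in against knockout RPE/choroid gave the largest protease differences, with the same 3 knockout libraries as in the comparison with wild type. Cpa3 was higher in knock-in by log2 0.60 (SE 0.13, 95% interval 0.30 to 0.89), Cma1 by 0.60 (SE 0.14, 0.29 to 0.91), Mcpt4 by 0.55 (SE 0.14, 0.24 to 0.86) and Tpsb2 by 0.50 (SE 0.21, 0.02 to 0.98). By edgeR, 0 of 7 genes were called, where 0.453% of all genes were, with adjusted p from 0.122 to 0.387 for the proteases and an unadjusted p under 0.05 for all 4. The median of the 4 was 0.57, beside 0.00 over all genes. Groups that do not overlap, with knock-in higher, were found for Cpa3, Cma1, Mcpt4 and Hnmt, and for 11.3% of all genes.

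Whether these proteases count as changed between knock-in and knockout turned on the test. DESeq2 called Cpa3 (adjusted p = 0.0083), Cma1 (0.0192) and Mcpt4 (0.0355), and 2.03% of all genes. On the 6 compared libraries alone, edgeR called Cpa3 (0.0446) and Cma1 (0.0289), and 1.29% of all genes. Without wild-type library 2, edgeR called Cpa3 (0.0286) and Cma1 (0.0317), and 1.22% of all genes. Limma on log2(FPKM + 1) called 0 of them and 0.137% of all genes. In the authors' deposited table, q was 0.00347 for Cpa3, 0.0400 for Mcpt4, 0.0578 for Cma1 and 0.241 for Tpsb2, where 2.36% of genes have a q under 0.05. The deposited table gives no q under 0.05 to a protease in knockout against wild type, with 0.141 for Cpa3 as the lowest, where 2.9% of genes have one.

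**Figure D4:**
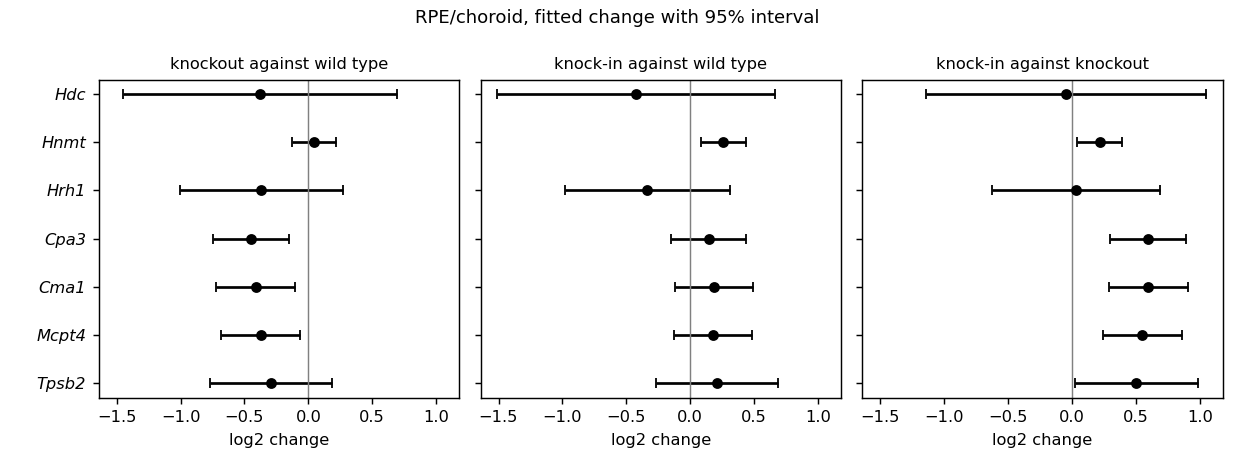
Fitted log2 change with its 95% interval (horizontal axis) of the 7 genes tested in RPE/choroid, for the 3 comparisons of genotypes. The 4 proteases lie at -0.45 to -0.29 in knockout against wild type, at 0.15 to 0.21 in knock-in against wild type and at 0.50 to 0.60 in knock-in against knockout, and the Hdc intervals are the widest.

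Whether Hdc followed the proteases over the genotypes could not be decided, as its intervals were wide. In knockout against wild type its log2 of -0.38 lay within the protease range of -0.45 to -0.29. In knock-in against knockout Hdc stood at -0.05, and its interval of -1.145 to 1.051 held the protease values of 0.50 to 0.60. In knock-in against wild type it stood at -0.42, and its interval of -1.512 to 0.664 held those of 0.15 to 0.21. Hdc fragments were 3.59% to 14.3% of those of Cpa3 over the 9 RPE/choroid libraries. The share was lowest in knock-in library 0 and highest in knockout library 2. Within knock-in alone it ran from 3.59% to 10.8%. Of the other mast cell genes, the tryptase gene Tpsab1 gave 4.26 to 6.40 TMM-scaled CPM in the wild-type, 4.02 to 4.53 in the knockout and 5.24 to 5.82 in the knock-in libraries. Fcer1a, the IgE-binding chain of the mast cell and basophil receptor, rested on 16 fragments in knockout and 46 in knock-in and differed by log2 1.78 between them (adjusted p = 0.160). Kit, the stem cell factor receptor of mast cells and melanocytes, gave 83.8 to 93.4 in the wild-type, 92.8 to 97.7 in the knockout and 85.3 to 87.7 in the knock-in libraries, with knockout the highest. Mrgprb1 gave 2.73 to 4.30 in wild type, 2.58 to 4.03 in knockout and 2.62 to 4.79 in knock-in. In the same order, Mrgprb2 gave 0.625 to 1.43, 0.980 to 1.64 and 1.48 to 2.11. Ms4a2, too low to be tested, gave 0.454 to 0.607, 0.155 to 0.426 and 0.333 to 0.346.

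Over the fixed list of 11 mast cell proteases, 5 were abundant enough in RPE/choroid to be tested, and all 5 were lower in knockout than in wild type (median log2 -0.37) and higher in knock-in than in knockout (median 0.55), with 0 called. Of the 16 mast cell surface and lineage genes, 14 were tested: 7 were lower and 7 higher in knockout than in wild type (median 0.00), and 6 lower and 8 higher in knock-in than in knockout (median 0.02), with 0 called. The shares of all genes called in these comparisons were 0.472% and 0.453%. The proteases summed to 64.8 to 76.3 FPKM in the wild-type, 43.4 to 59.5 in the knockout and 65.9 to 91.7 in the knock-in RPE/choroid, and the surface and lineage genes to 151.3 to 173.5, 142.3 to 183.1 and 131.3 to 184.8. The protease sum of 91.7 was that of library 2. Library 2 also held the highest surface and lineage sum of each genotype.

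Summed markers of other RPE/choroid cells also varied between these groups, with 0 of the single markers called in any comparison of genotypes. The share of all genes called there was 0.0647% to 0.472%. The 10 RPE markers summed to 9085 to 9442 FPKM in the wild-type, 7169 to 7862 in the knockout and 7328 to 11860 in the knock-in libraries. The 11860 was that of knock-in library 2. The 5 fibroblast markers summed to 4647 to 5546 in the wild-type, 4089 to 4643 in the knockout and 3702 to 4759 in the knock-in libraries. For both lists knockout lay below wild type and overlapped knock-in. Among single genes, 11.5% had such a gap with knockout below wild type. The 6 endothelial markers summed to 115.1 to 133.8 FPKM in wild type and to 134.4 to 148.2 in knockout, which lay above it. Their median fitted log2 was 0.11. The share of genes with knockout above wild type is not given here. The red blood cell markers ranged from 6.25 to 169.3 FPKM, with all 3 groups overlapping. Macrophage markers summed to 80.2 to 87.4 FPKM over all 9 libraries, with the groups overlapping, and basophil markers to 0.213 to 0.735. The 5 extraocular muscle markers summed to 2901 to 4116 FPKM in wild type, 3099 to 4344 in knockout and 3485 to 5950 in knock-in. These groups overlapped. All 5 had higher fitted levels in knock-in than in knockout (median log2 0.25) and than in wild type (median 0.32). In knockout against wild type 3 were higher and 2 lower. Melanocyte markers summed to 5581 to 7573 FPKM and lens markers to 8.72 to 1242, with the groups overlapping for each. No marker of these lists was at 0 in the tissue. The part of these markers in the protease values was not tested.

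The promoters of the 3 proteases whose knockout libraries lay below all others are shown for comparison with each other. They are the 250 bases before the RefSeq start (GRCm38.p6), all on the minus strand and printed 5′ to 3′, with the GATA and TATA words named above in capitals on either strand. Their positions are chr3:20242182-20242431 for Cpa3, chr14:55944676-55944925 for Cma1 and chr14:56062311-56062560 for Mcpt4.
Cpa3: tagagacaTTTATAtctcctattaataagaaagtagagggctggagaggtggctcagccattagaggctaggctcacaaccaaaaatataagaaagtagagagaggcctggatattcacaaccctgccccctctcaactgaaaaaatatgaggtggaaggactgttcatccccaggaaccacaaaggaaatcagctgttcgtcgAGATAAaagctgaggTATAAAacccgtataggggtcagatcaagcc
Cma1: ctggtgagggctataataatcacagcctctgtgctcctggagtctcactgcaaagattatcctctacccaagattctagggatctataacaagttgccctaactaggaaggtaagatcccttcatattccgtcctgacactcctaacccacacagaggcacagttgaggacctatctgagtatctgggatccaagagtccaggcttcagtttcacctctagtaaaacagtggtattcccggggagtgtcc
Mcpt4: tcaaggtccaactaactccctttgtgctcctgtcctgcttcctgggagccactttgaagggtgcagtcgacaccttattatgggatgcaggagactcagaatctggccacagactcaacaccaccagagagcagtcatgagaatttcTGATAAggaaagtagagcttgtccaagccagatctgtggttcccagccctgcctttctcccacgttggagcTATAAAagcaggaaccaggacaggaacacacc
Cpa3 has AGATAA at 46 to 41 bases and TATAAA at 31 to 26 bases before the start, and TTTATA, which is TATAAA on the other strand, at 242 to 237. Mcpt4 has TGATAA at 103 to 98 bases and TATAAA at 32 to 27 bases before the start. None of the words searched for is in the Cma1 window. It does hold CTATCT, or AGATAG on the other strand, a related word that was not searched for. GATA words are in 16.6% and the TATA word in 12.4% of all RefSeq promoters of this length, so such matches are frequent, and they do not show that a factor binds.

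The profile closest to that of Cpa3 over the 9 RPE/choroid libraries depended on the scale. On FPKM, the first 5 of 12396 genes were Rps15a, Il1rl1, Rgs18, Itgb3bp and Ppt1, with a root mean square difference of 0.11 to 0.13, and Mcpt4, Cma1 and Tpsb2 ranked 30, 219 and 2151. On TMM-scaled CPM, the first were Dusp1 and Mcpt4, Cma1 ranked 6 and Tpsb2 ranked 51. Il1rl1, which encodes the receptor of interleukin 33 on mast cells, was among the first 5 on both. In knock-in against knockout it stood at log2 0.49. Ppt1, a lysosomal thioesterase gene, stood at log2 -0.65 in knockout against wild type and at 0.67 in knock-in against knockout. These genes were picked for their likeness to Cpa3 in the same libraries, so no test is given.

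This dependence on the scale has a counterpart in the FPKM values themselves. The FPKM divided by the TMM-scaled CPM would be a single number per gene if its effective length were the same in every library and both scales treated library size alike. For Hnmt in both tissues, Cpa3 in RPE/choroid and Hrh3 in retina it differed by library number in every group. For Hnmt in RPE/choroid it was 0.942 to 0.982 in the libraries numbered 2 and 0.530 to 0.673 in those numbered 0 and 1. For Cpa3 these ranges were 0.865 to 0.909 and 0.556 to 0.684. For Hrh3 in retina the direction was the opposite, with 0.481 to 0.503 in libraries numbered 2 and 0.688 to 0.799 in the others. Kit in retina had 0.189 to 0.192 and 0.189 to 0.192. For Tpsb2 in RPE/choroid the ranges overlapped, with 1.12 to 1.15 in libraries numbered 2 and 1.08 to 1.25 in the others. Within a genotype, the spread therefore depended on the scale, in no fixed direction. Knock-in Cpa3 was 13.8, 16.9 and 24.3 FPKM on 24.8, 26.3 and 26.7 CPM, so the FPKM spread more widely. Wild-type Cpa3 was 15.3, 16.9 and 17.0 FPKM on 25.8, 24.8 and 19.7 CPM, so the FPKM spread less.

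**Figure D5:**
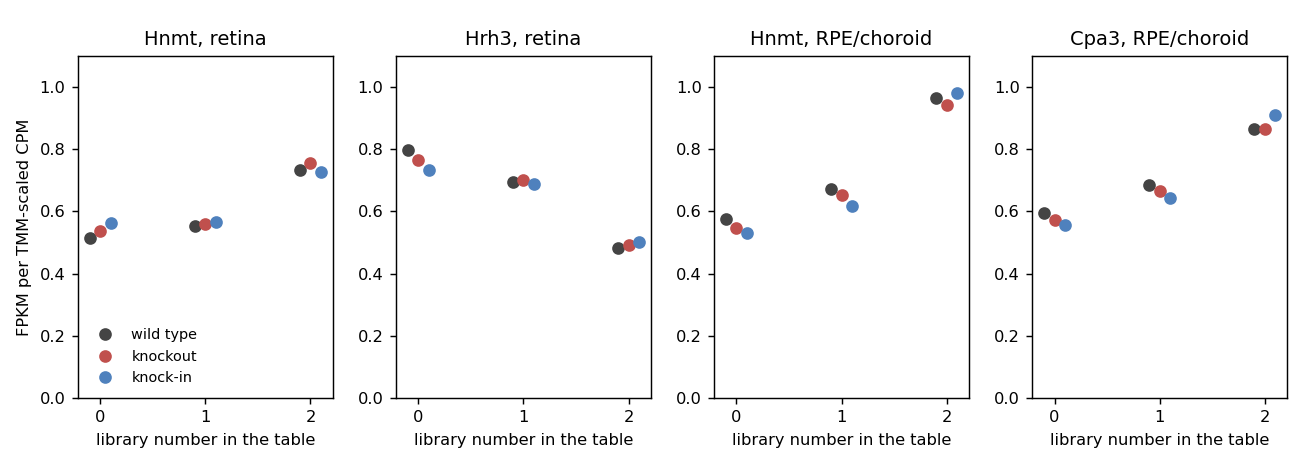
FPKM divided by TMM-scaled CPM (vertical axis) against the library number in the tables (horizontal axis) for Hnmt and Hrh3 in retina and Hnmt and Cpa3 in RPE/choroid, coloured by genotype. In RPE/choroid the libraries numbered 2 lie at 0.942 to 0.982 for Hnmt and 0.865 to 0.909 for Cpa3, above all others, and for Hrh3 in retina they lie at 0.481 to 0.503, below all others.

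Among 13 listed genes of histamine and histidine metabolism and transport, 12 were in the tables and 8 were tested in retina. With Hdc left aside as the gene the rule chose, 0 of 7 were called in each mutant against wild type and between the mutants. Of all genes, 0.98% were called in knockout, 0.265% in knock-in and 1.26% between the mutants, so 0 is near the share over all genes. Over all 8, Hdc included, the median log2 was -0.02 in knockout and 0.01 in knock-in, each against wild type. In RPE/choroid 11 were tested and 0 called in any comparison of genotypes, with medians of -0.02, 0.02 and -0.04. The shares of all genes called there were 0.472%, 0.0647% and 0.453%. Slc18a2, the vesicular carrier that loads histamine and other amines, was at 5.72 ± 0.52 FPKM (SD, n = 3) in the wild-type, 5.58 ± 0.40 in the knockout and 6.10 ± 0.66 in the knock-in retina. Its log2 difference from wild type was -0.06 (adjusted p = 0.799) and 0.05 (adjusted p = 0.907). Diamine oxidase, the extracellular route of histamine breakdown, listed as Abp1, had 0 fragments in all 9 retinal libraries, and 63 in the 9 RPE/choroid libraries.

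Of the 6 listed decarboxylases that use pyridoxal phosphate as Hdc does, all were tested in both tissues. In retina 0 of the 5 beside Hdc were called in either mutant, where 0.98% and 0.265% of all genes were called. The median log2 of all 6 was -0.22 in knockout and -0.16 in knock-in. These medians include Hdc, which was chosen for its low values, so no shared fall is read from them. Ddc, which makes dopamine and serotonin, had a log2 difference of -0.36 (adjusted p = 0.700) in knockout and -0.10 (adjusted p = 0.957) in knock-in retina. In RPE/choroid 0 of the 6 were called in the comparisons of genotypes, where 0.0647% to 0.472% of all genes were called. Ddc came nearest, at 9.19 ± 0.55 FPKM (SD, n = 3) in wild type and 6.51 ± 0.44 in knockout (log2 -0.52, adjusted p = 0.0574). Csad, of the taurine pathway, was the most abundant of the 6 in RPE/choroid and stood at log2 0.09 in knockout (adjusted p = 0.559).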

How the data were processed

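RNA of 18 mouse samples was sequenced from stranded total RNA libraries after removal of ribosomal RNA, as 100 base pairs of reads, per the labels' protocols. Per the submitters' processing notes, the authors used TopHat, Bowtie2 and Cufflinks with mm9. Their versions, the annotation and whether counting used the strand: not given in the sources used here. Library numbers of the tables could not be tied to single samples, and each library was placed only in its group.

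The deposited tables give raw fragments per gene, which are expected counts per the file headers; 98.5% of retinal and 98.4% of RPE/choroid values are whole, and the rest were rounded. The same tables give FPKM per library, and per gene the comparisons the authors deposited hold a p-value with its q-value, per the file headers. Deposited transcript lengths in bases were read only for the lengths of the 9 genes. No gene estimate of the 9 was marked as failed.

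The test of fragments was that of edgeR 4.0.16, run in R 4.3.3 (TMM, filterByExpr, robust quasi-likelihood, all 9 libraries of a tissue in 1 fit, all 18 for the tissues), with Benjamini-Hochberg adjustment over all genes and a threshold of 0.05. Of the 9 genes, 5 passed the filter on low counts in retina, 7 in RPE/choroid and 9 in the fit of both. DESeq2 1.42.0, limma 3.58.1 on log2(FPKM + 1) and log2(FPKM + 0.1), RLE scaling, no filter, the compared libraries alone, a sex term, a replicate block and leaving out each library were alternatives. It was tested on simulated data: for knock-in against knockout in RPE/choroid it found 49.3% of the genes set to change 1.5-fold, 65.7% at 2-fold and 89.4% at 4-fold, and 7 of 143 calls among 15370 genes were false.

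Genes and lists were chosen with earlier results of these data known. Beyond the 9 genes, named genes are Abca4, up to 4 called genes of each list or the 2 most abundant, the 5 profiles closest to Hdc and to Cpa3, and the neighbours of Hdc. Tpsab1, Fcer1a, Kit, Ms4a2, Mrgprb1, Mrgprb2, Hrh4, Abp1, Slc18a2, Ddc and Csad were added after their values were seen. Positions are those of the mm9 tables, and promoters are from RefSeq; Tpsb2 has no entry. No gene of the 9 overlaps another in the tables.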

Additional observations from a re-analysis of the deposited data

Results flagged for a closer look

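The visual cycle gene Rpe65, an RPE marker, had a knockout effect that was lower in RPE/choroid than in retina by a fitted log2 of -1.61 (adjusted p = 0.00565 for the difference, by edgeR over all 18 libraries). Rgr, which encodes an opsin of the RPE, had a knockout effect lower in RPE/choroid than in retina by a fitted log2 of -1.67 (adjusted p = 0.00977). Both genes are among the 10 RPE markers. In knockout against wild type, 4 of the 10 were called higher in retina (median log2 1.04). In RPE/choroid 0 were called (median -0.14). Among all genes tested, 0.98% were called in retina and 0.472% in RPE/choroid, in either direction. The difference between tissues was negative for 9 of the 10. Its cause was not tested.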

How the results depend on the processing

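Of 860 refits of single genes, 815 kept their direction and side of the threshold, 9 newly passed it, 3 lost it and 33 changed sign, none of the 33 past the threshold. Of the 7 genes tested in RPE/choroid, knockout against wild type called 0 to 2 when 1 library was left out, and knock-in against knockout called 0 to 2, 3 with DESeq2 and 2 on the compared libraries alone. Signs changed as follows (log2). Hnmt in knockout retina became 0.022 and 0.024 with limma (pseudocount 1 and 0.1) and 0.017 with a sex term, and was -0.048 to 0.040 with 1 library left out. Hrh3 in knock-in retina became -0.0051 and -0.0036 with limma and -0.087 with a sex term (-0.071 to 0.098 with 1 library out), and Hrh1 there 0.067 with a sex term (-0.34 to 0.22). Hnmt in knockout RPE/choroid became -0.010 and -0.011 with limma (-0.0075 to 0.10), and its difference between tissues -0.032 and -0.035 (-0.015 to 0.12). With 1 library left out, the ranges were -0.21 to 0.0036 for Hrh3 in knockout retina, -0.12 to 0.23 for Hrh2 in knock-in retina, -0.039 to 0.52 for Hrh1 between mutant retinas, -0.18 to 0.21 for Hrh1 and -0.79 to 0.46 for Hdc between mutant RPE/choroids, and -0.29 to 0.11 for the difference of Hrh1 between tissues. The cause was not tested.

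The replicate block, with the library number as block, changed no call of the 9 genes. With it, and with Hdc in retina left aside, 0 were called in each comparison of genotypes. Cpa3 in knock-in against knockout RPE/choroid then stood at log2 0.60 (adjusted p = 0.205). Deviations of same-numbered libraries correlated from -0.47 to 0.21 in retina and from -0.12 to 0.24 in RPE/choroid, so not every one was over 0.1, and the numbers were not taken to pair the samples. FPKM per CPM nevertheless differed by library number for some genes, as given above. Counts of all genes called moved by more than 1.5 times: knockout against wild type in RPE/choroid called 73, against 532 with DESeq2, 18 with limma and 28 with the block. Limma on FPKM was not run between the tissues, whose tables were scaled separately. Hrh1, Hrh2 and Hdc had under 80 fragments per library, and Hrh3 had 2 to 6 in 8 of the 9 RPE/choroid libraries.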
